A study of Homo sapiens with 6 samples.

Results

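The genes described are 45 neural adhesion genes: 14 cadherins, 12 adhesion genes of the immunoglobulin type, 10 contactins and contactin-associated (CNTNAP) genes, and 9 genes of a neurexin-neuroligin group that also holds LRRTM2 and the teneurins. They were chosen by symbol from the 20668 genes of the count table, with earlier results of these data known. Of the 45 genes, 39 were in the table and 32 had enough counts to be tested. All cells were untreated SH-SY5Y, an established human neuroblastoma line of sympathoadrenal character. There were 3 libraries from DNAJC12 knockout cells, made with CRISPR/Cas9, and 3 from wild-type (WT) cells. The DNAJC12 protein is a partner of the chaperone HSP70, and the submitters' stated interest was the invasion of these cells. The labels say neither whether the knockout is 1 clone or several nor whether replicates were separate cultures, so p-values reflect the variation among these libraries alone, and it may be technical.

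Cadherins bind the same or related cadherins on the next cell and are tied to actin through catenins. The immunoglobulin-type proteins NCAM and L1 act in axon growth and bundling, with ankyrins under the membrane. Contactins are lipid-anchored proteins that pair with CNTNAP proteins on axons, and neurexins on the presynaptic side bind neuroligins and LRRTM proteins across the synapse. Neurexin genes have separate start sites for a long alpha and a short beta form, and several L1-type genes carry short exons that are included in neurons.

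Some of these genes have transcript forms that bear on the results, and the sequences that tell the forms apart are shown here. The short coding exons of L1CAM and NRCAM are in capitals, with 12 bases of the neighbouring exons of the same transcript on each side in lower case, 5′ to 3′. The start of the coding sequence of NRXN2-202, the leading beta-type transcript, has its start codon in capitals. All were read from GENCODE 29 transcripts (GRCh38, minus strand).
L1CAM 12-base exon, chrX:153863368-153863379: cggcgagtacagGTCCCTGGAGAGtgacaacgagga
L1CAM 15-base exon, chrX:153873228-153873242: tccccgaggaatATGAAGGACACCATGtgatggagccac
NRCAM 18-base exon, chr7:108237752-108237769: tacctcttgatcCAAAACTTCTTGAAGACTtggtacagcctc
NRCAM 30-base exon, chr7:108191254-108191283: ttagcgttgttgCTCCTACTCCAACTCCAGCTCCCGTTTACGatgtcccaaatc
NRCAM 36-base exon, chr7:108175322-108175357: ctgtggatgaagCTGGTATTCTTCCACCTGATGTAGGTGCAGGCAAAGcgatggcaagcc
NRCAM 57-base exon, chr7:108225645-108225701: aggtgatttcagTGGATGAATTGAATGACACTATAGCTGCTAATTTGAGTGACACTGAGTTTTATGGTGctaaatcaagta
NRXN2-202 coding start, chr11:64642744-64642803: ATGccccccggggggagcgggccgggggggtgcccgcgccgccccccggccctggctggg

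The libraries held 19845788 to 21869659 counts in the knockout and 19321842 to 20071795 in WT. DNAJC12 RNA averaged 5.54 ± 0.601 CPM (counts scaled to the library total) in the knockout and 21.5 ± 1.5 CPM in WT (SD, n = 3 each), a change of -1.95 ± 0.13 on the log2 scale (edgeR adjusted p = 1.25e-06). All 8 sympathoadrenal markers were in the table, with summed levels of 3071 to 3243 CPM in knockout libraries and 3291 to 3528 CPM in WT libraries. Of these 8, 2 were higher and 4 were lower in the knockout. Across all genes 14.5% were higher and 11.5% lower at an edgeR adjusted p under 0.05. The same shares apply to the marker lists that follow, all chosen with earlier results of these data known. Of 7 mesenchymal markers 4 were higher and 0 lower, COL1A2 and TWIST1 did not pass, and PRRX1 was not in the table. The list summed to 4033 to 4218 CPM in knockout libraries and 2659 to 2880 CPM in WT libraries. Most of this difference came from VIM, which averaged 3261 ± 120 CPM in the knockout and 2086 ± 130 CPM in WT (SD, n = 3 each). The epithelial list summed to 72.6 to 81.8 CPM in knockout libraries and 22.4 to 24.9 CPM in WT libraries, but 1 gene, KRT18, carried this difference. KRT18 averaged 70.0 ± 3.92 CPM in the knockout and 8.85 ± 0.322 CPM in WT, CLDN4 averaged 3.32 ± 0.318 CPM in the knockout and 10.9 ± 1.40 CPM in WT (SD, n = 3 each), and EPCAM, KRT19 and CLDN7 did not pass. Schwann cell and glial markers summed to 7.37 to 8.35 CPM in knockout libraries and 7.72 to 9.68 CPM in WT libraries, with SOX10, FOXD3 and GFAP not in the table. Endothelial markers summed to 1.91 to 2.04 CPM in knockout libraries and 2.18 to 2.86 CPM in WT libraries, with PECAM1 and KDR not in the table. The part of these differences in the adhesion results was not tested, and in bulk RNA fewer cells of a kind cannot be told apart from less RNA per cell.

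Most of the adhesion genes that could be tested differed between the genotypes, in both directions. Of 32 tested, 16 rose in the knockout and 7 fell, while 9 missed an adjusted p of 0.05 (edgeR's quasi-likelihood test, Benjamini-Hochberg over 16403 genes). Across all genes tested 26.0% passed, 14.5% higher and 11.5% lower. The 23 adhesion genes were 71.9% of those tested. At least a 2-fold change was seen for 16 of them, against 9.24% of all genes. Their median log2 fold change was 0.41, and that of all genes was 0.00. For 26 of the 32 the ranges of the genotypes did not overlap (81.2%), and the share among all genes was 41.7%. The 45 genes were chosen with earlier results of these data known, so these shares do not show how adhesion genes compare with others. Genes near 0 in WT (CHL1, CADM3, CNTN2 and CNTNAP5) passed the filter on low counts only through the knockout libraries. Fold changes are log2 values of knockout over WT ± SE (n = 3 per group), and levels are CPM after TMM scaling.

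**Figure D1:**
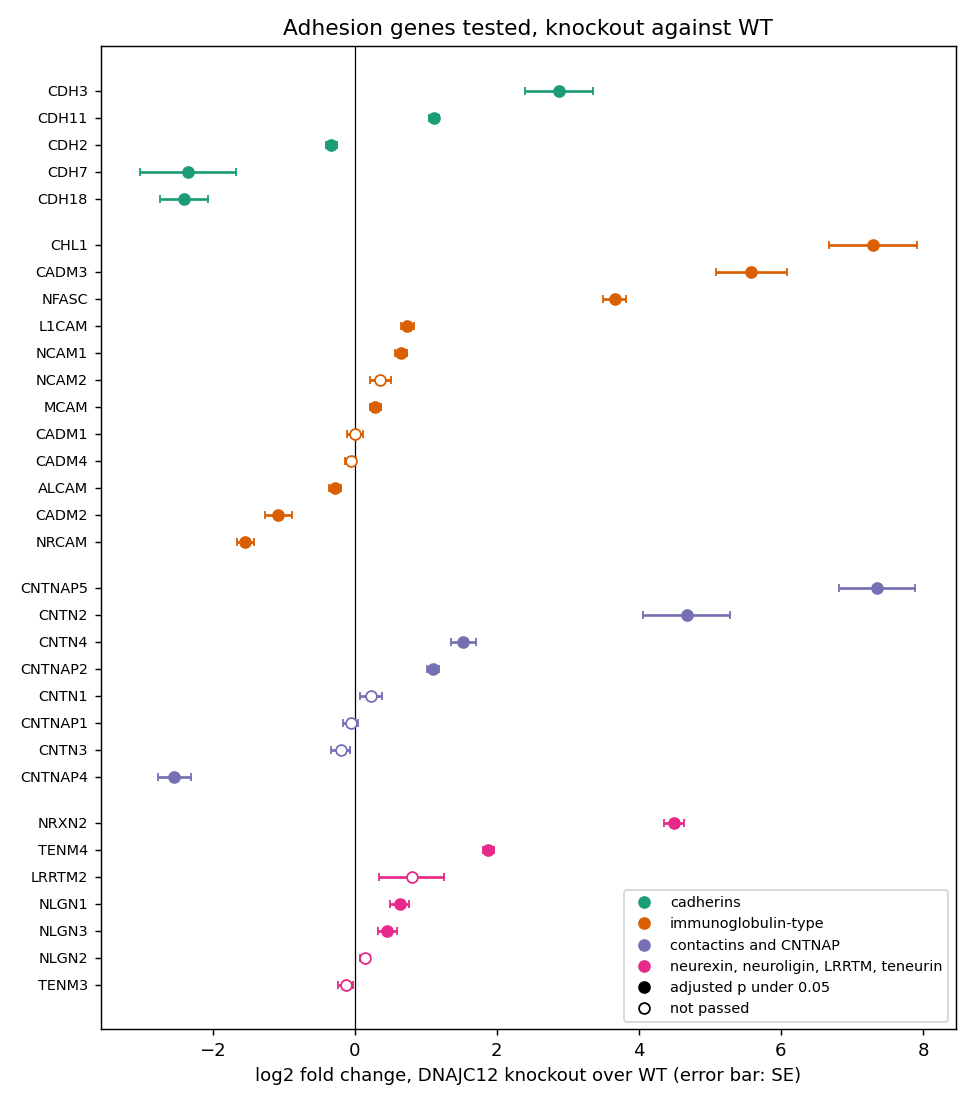
Log2 fold change of knockout over WT for the 32 adhesion genes tested, by group, with SE bars; filled points passed an adjusted p of 0.05. The 5 cadherins split 2 higher and 3 lower, and the largest rises were those of CNTNAP5 (7.35) and CHL1 (7.29).

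All 5 cadherins with enough counts differed, and the 2 most abundant moved in opposite directions. CDH11, a type II cadherin of mesenchymal and some neural cells, rose 2.15-fold, while CDH2 (N-cadherin), the main cadherin of neural tissue, fell to 0.796 of the WT level. CDH3 rose, and the type II genes CDH7 and CDH18 fell. CDH3, CDH7 and CDH18 passed the filter on low counts through the genotype in which they were high. That all 5 differed was therefore partly set by this filter, and 26.0% of all genes tested differed. The median over the 5 was -0.33.

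CDH2 (chr18:27932879-28177130) had 450, 565 and 515 CPM in knockout libraries, against 605, 652 and 665 CPM in WT libraries. The genotypes did not overlap, but the gap between them was small beside the spread of the knockout libraries. The change was -0.33 ± 0.08 (edgeR adjusted p = 0.0132). It lay just outside the threshold without knockout replicate 3 (edgeR adjusted p = 0.0505), WT replicate 2 (0.0565) or WT replicate 3 (0.0572).

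CDH11 (chr16:64943753-65123744) had 124, 138 and 132 CPM in knockout libraries and 59.6, 61.9 and 61.3 CPM in WT libraries. Every knockout library was above every WT library, by more than the spread within either genotype. The change was 1.11 ± 0.07 (edgeR adjusted p = 1.1e-06). Its 2 main coding transcripts rose alike, CDH11-201 by 1.11 ± 0.08 (edgeR adjusted p = 0.00378 over 52233 transcripts, of which 2.76% passed) and CDH11-212 by 1.09 ± 0.09 (0.00516). Of 58 tested transcripts that held at least 5% of the reads of an adhesion gene, 10 were higher and 3 lower, in 11 genes.

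The 3 other cadherins were near the bottom of the measurable range. CDH3 (P-cadherin, best known from epithelia) had 2.50, 1.73 and 2.52 CPM in knockout libraries and 0.194, 0.558 and 0.153 CPM in WT libraries, with a change of 2.88 ± 0.48 (edgeR adjusted p = 0.00121, and 3.64 without WT replicate 2). CDH18 had 0.713, 0.433 and 0.793 CPM in knockout libraries and 3.92, 3.70 and 2.66 CPM in WT libraries, a change of -2.40 ± 0.34 (edgeR adjusted p = 0.000365). These 2 genes kept their genotypes well apart in all libraries. CDH7 had 0.204, 0.241 and 0 CPM in knockout libraries and 0.678, 1.02 and 0.614 CPM in WT libraries, from 9 and 46 counts. Its change of -2.35 ± 0.68 (edgeR adjusted p = 0.0281) did not pass without knockout replicate 3 (-1.76, adjusted p = 0.0735) or without WT replicate 1 (0.0633), 2 (0.115) or 3 (0.0644), and it was -3.47 when computed from length-corrected transcript reads.

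The other cadherins were at or near 0. CDH4 had 1, 2 and 8 counts in knockout libraries, most of them in replicate 3, and 0 in each WT library. CDH13, an atypical cadherin held by a lipid anchor, had 8, 10 and 3 counts in knockout libraries and 0, 1 and 1 in WT libraries. CDH8 had 19 and 4 counts, and CDH22 had 10 and 6 counts, in knockout and WT, with the libraries overlapping for both. Tested with no filter on low counts, these 4 genes did not pass, with edgeR adjusted p between 0.0592 for CDH13 and 0.747 for CDH22. CDH5, CDH6, CDH9, CDH10 and CDH12 were not in the table. In the transcript files CDH5 had 5 reads in the knockout and 0 in WT, CDH6 had 4 and 0, and CDH9, CDH10 and CDH12 had 0 in every library.

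Per unit of length, in TPM (reads scaled by transcript length and library total), CDH2 was the highest of the 45 genes in both genotypes. CDH2 held 64.0%, 67.8% and 67.2% of the summed cadherin TPM in knockout libraries, against 85.4%, 85.6% and 87.2% in WT libraries. CDH11 held 34.1%, 31.4% and 31.3% in knockout libraries and 13.4%, 13.2% and 12.2% in WT libraries. The shares of the genotypes did not overlap (exact permutation p = 0.1, two-sided, the smallest that 3 against 3 allows). The summed level was 194 ± 24.3 TPM in the knockout and 209 ± 17.8 TPM in WT (SD, n = 3 each) and overlapped between genotypes. GENCODE 29 transcripts carried 70.1% to 75.1% of the CDH2 counts in knockout libraries and 73.2% to 85.5% in WT libraries, so that the CDH2 TPM is too low. By raw counts the share of CDH2 was 11.7 percentage points lower in the knockout, where by TPM the difference between the mean shares, 66.3% and 86.1%, was larger.

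**Figure D2:**
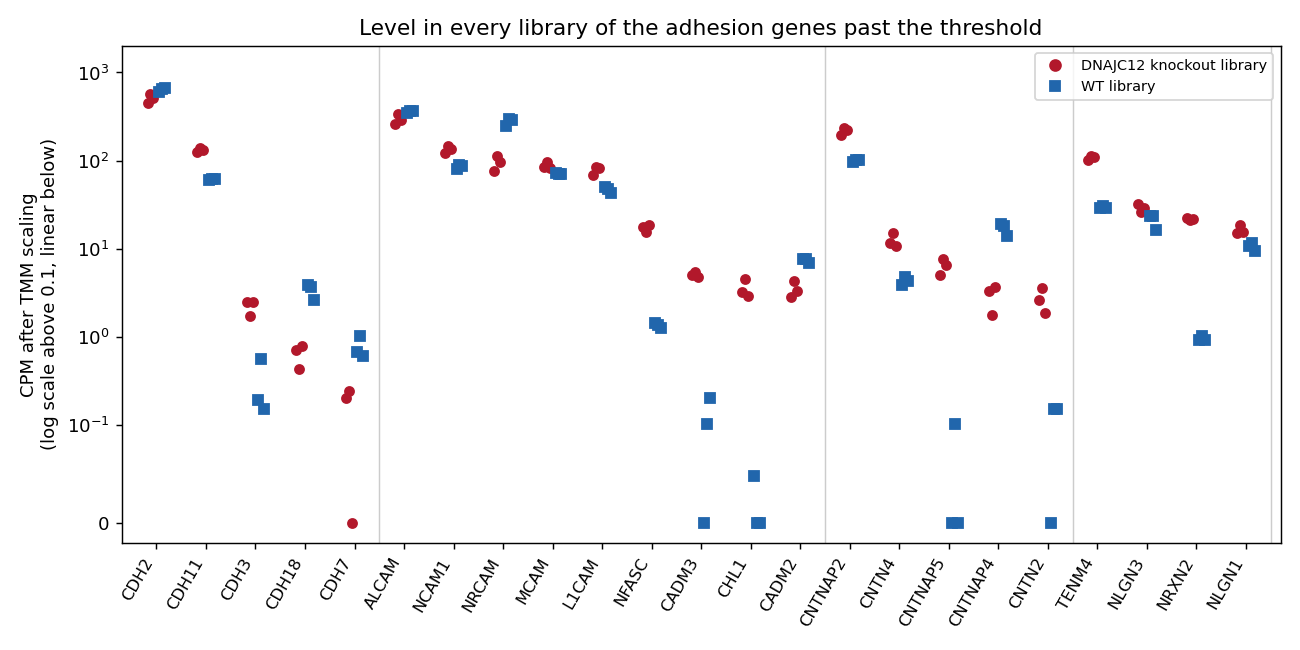
CPM after TMM scaling in every library for the 23 adhesion genes past the threshold, knockout circles left of WT squares, grouped by vertical lines; the axis is logarithmic above 0.1 and linear below. CHL1, CADM3, CNTNAP5 and CNTN2 lie at or near 0 in the WT libraries and between 1.87 and 7.61 CPM in the knockout libraries.

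All 4 genes of the L1 family differed, 3 higher and NRCAM lower in the knockout. The 12 immunoglobulin-type genes held 6 that rose, 3 that fell and 3 that missed the threshold, and their median was 0.33. For all genes tested the shares were 14.5% higher and 11.5% lower, and the median was 0.00. CHL1 and CADM3 passed the filter on low counts only through the knockout libraries. L1 family proteins bind each other and other adhesion proteins outside the cell and ankyrin inside it, and the neurofascin and NrCAM proteins gather sodium channels at the axon initial segment and nodes of Ranvier.

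NFASC (neurofascin, chr1:204828652-205022822) had 17.9, 15.6 and 18.7 CPM in knockout libraries and 1.45, 1.37 and 1.28 CPM in WT libraries. The level was 12.7-fold higher in the knockout with little spread in either genotype, a change of 3.66 ± 0.16 (edgeR adjusted p = 7.87e-08). The long transcript NFASC-204 had 170, 108 and 147 reads in knockout libraries and 0 in each WT library (edgeR adjusted p = 0.0134). In WT replicate 2 only 27.1% of the NFASC counts lay on GENCODE 29 transcripts.

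CHL1 (close homolog of L1, chr3:196763-409417) had 3.26, 4.53 and 2.89 CPM in knockout libraries and 0.0484, 0 and 0 CPM in WT libraries. It rested on 220 counts in the knockout and 1 count in WT, a ratio of 213 (exact 95% interval 37.9 to 8456). The fitted change was 7.29 ± 0.62 (edgeR adjusted p = 1.01e-05), and it was 6.61 by limma-voom and 9.17 without WT replicate 1, the WT library that held the count.

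NRCAM (chr7:108147649-108456720) had 77.2, 112 and 96.5 CPM in knockout libraries and 248, 295 and 287 CPM in WT libraries. It fell to 0.344 of the WT level, every knockout library lying far below every WT library, a change of -1.54 ± 0.12 (edgeR adjusted p = 6.44e-06). L1CAM (chrX:153861514-153886173) had 69.4, 83.7 and 83.0 CPM in knockout libraries and 49.8, 47.7 and 43.5 CPM in WT libraries. It rose 1.67-fold, a change of 0.74 ± 0.09 (edgeR adjusted p = 0.000181).

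L1CAM held a larger share of the L1 family in the knockout and NRCAM a smaller one. L1CAM held 49.1%, 43.7% and 48.8% of the family's TPM in knockout libraries and 22.2%, 17.1% and 17.9% in WT libraries. NRCAM held 39.3%, 46.3% and 39.6% in knockout libraries and 77.1%, 82.8% and 81.1% in WT libraries. By TPM L1CAM was above NRCAM in knockout replicates 1 and 3 and below it in knockout replicate 2, while NRCAM led in every WT library. By counts NRCAM was above L1CAM in all 6 libraries. The summed level was 53.9 ± 4.92 TPM in the knockout and 79.8 ± 6.63 TPM in WT (SD, n = 3 each). For both shares and the sum the genotypes did not overlap (exact permutation p = 0.1, two-sided, the smallest possible).

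**Figure D3:**
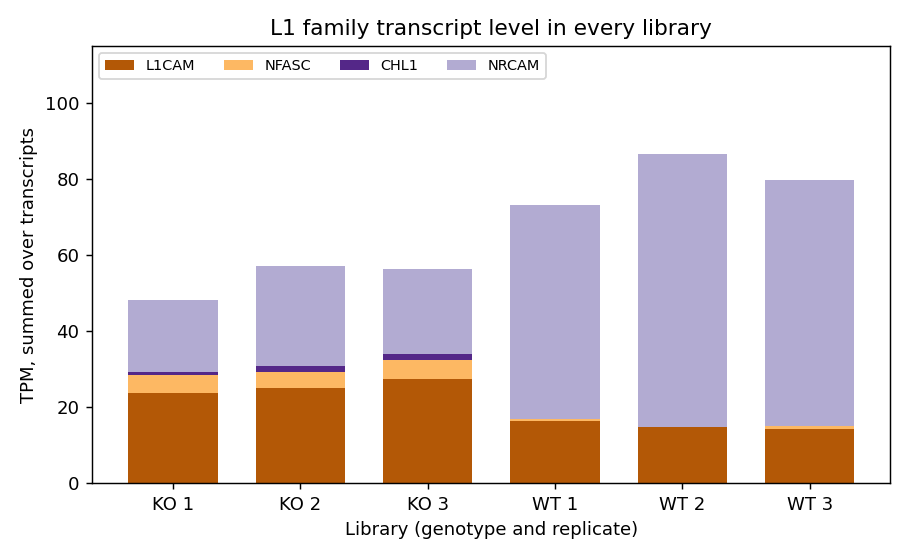
TPM of the 4 L1 family genes stacked for each library, knockout libraries left of WT libraries. NRCAM takes 77.1% to 82.8% of the bar in WT libraries and 39.3% to 46.3% in knockout libraries, and the sum is lower in the knockout.

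The forms of L1CAM differed as well as its level. The 12-base exon printed above lies in the part that codes for the cytoplasmic tail, where it is known to form part of an endocytosis signal, and the 15-base exon lies near the start of the protein. Both are known as exons that neurons include and most other cells skip. The share of L1CAM transcripts with the 12-base exon, taken as the TPM of transcripts that hold it over that of all transcripts spanning it, was 62.1%, 82.7% and 69.6% in knockout libraries and 3.03%, 8.16% and 2.62% in WT libraries. The share with the 15-base exon was 81.8%, 82.4% and 80.6% in knockout libraries and 3.11%, 18.4% and 3.23% in WT libraries. For both exons every knockout library was far above every WT library, the means differing by 66.9 and 73.4 percentage points (exact permutation p = 0.1 for each, two-sided, the smallest possible).

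The same shift showed in single transcripts. L1CAM-205, which holds both exons, had 884, 1464 and 1274 estimated reads in knockout libraries and 35.0, 88.0 and 27.9 in WT libraries. It rose by 4.51 ± 0.50 (edgeR adjusted p = 0.0135). L1CAM-202, which has neither, had 284, 0 and 290 reads in knockout libraries and 693, 623 and 631 in WT libraries, and did not pass (-1.82 ± 1.33, edgeR adjusted p = 0.746). Every knockout library was below every WT library, and the knockout libraries varied widely, with 0 in replicate 2. Reads are divided among these near-identical transcripts by estimation, so the exon shares are estimates and not counts of reads across the exon junctions. L1CAM-205 has 5138 bases in the deposited files and 5141 in GENCODE 29, so its exon map may differ slightly from the one the authors used, while the NRCAM transcripts shown have the same lengths in both.

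A set of short exons of NRCAM differed too, in a gene that fell in level. The 18-base exon was in 36.0%, 35.1% and 32.4% of transcripts in knockout libraries and in 6.29%, 6.46% and 7.44% in WT libraries. The 30-base exon was in 27.7%, 29.4% and 27.8% in knockout libraries and in 6.32%, 6.84% and 7.44% in WT libraries. The 36-base exon was in 27.7%, 29.4% and 27.8% in knockout libraries and in 6.32%, 9.10% and 7.38% in WT libraries. These 3 exons were included more in every knockout library than in any WT library. The 57-base exon went the other way, with 76.5%, 79.1% and 81.5% in knockout libraries and 99.1%, 97.4% and 98.2% in WT libraries (exact permutation p = 0.1 for each of the 4, two-sided, the smallest possible).

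The 4 exons are not independent, because NRCAM-203 holds the 18-, 30- and 36-base exons and lacks the 57-base exon. NRCAM-203 had 333, 455 and 355 reads in knockout libraries and 45.1, 142 and 94.3 in WT libraries, and did not pass (1.95 ± 0.44, edgeR adjusted p = 0.101). NRCAM-201, which has the reverse set, had 1099, 1653 and 1486 reads in knockout libraries and 4779, 5323 and 5110 in WT libraries, and fell by 1.91 on the log2 scale (SE 0.15, edgeR adjusted p = 0.00477). The transcript that lacks the 3 exons was thus the one that fell, while the reads of the one that holds them were higher in each knockout library.

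**Figure D4:**
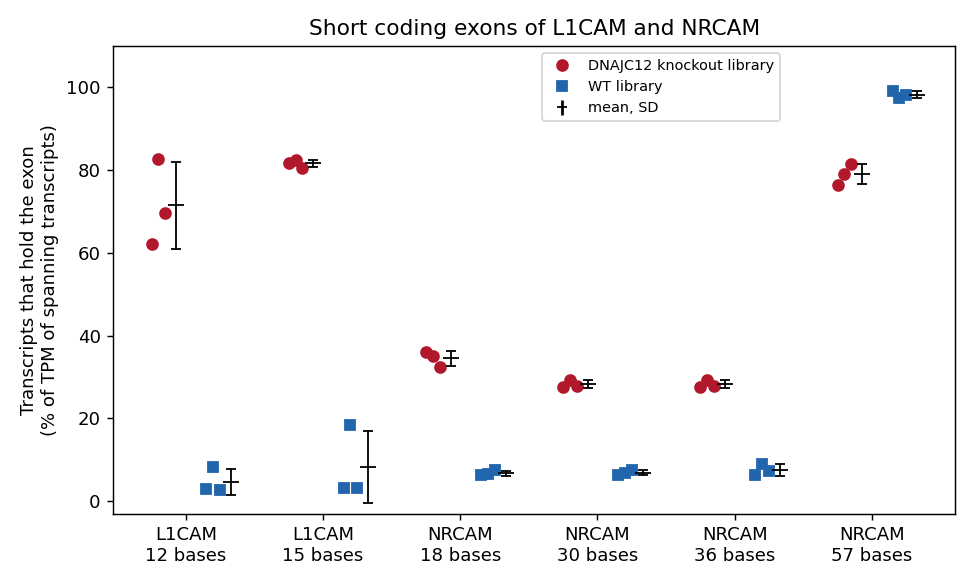
Share of the TPM of spanning transcripts that holds each short exon of L1CAM and NRCAM, in every library, with means and SD; knockout circles left of WT squares. Both L1CAM exons lie at 62.1% or more in knockout libraries and at 18.4% or less in WT libraries, and the 57-base exon of NRCAM is the single one with lower values in the knockout.

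Across the 45 genes, 18 short coding exons of up to 60 bases in 11 genes could be followed, and the libraries of the genotypes did not overlap for 7 of them, where 16.4% of the 1782 such exons of all genes did not overlap. Of these 7, 5 were higher and 2 lower in the knockout. A difference of at least 20 percentage points with no overlap was seen for 5, against 3.42% of all short exons. The exon outside L1CAM and NRCAM was the 33-base exon of CNTN1, with 83.5%, 78.6% and 86.8% in knockout libraries and 92.2%, 100% and 98.0% in WT libraries. The other 11 exons, in ALCAM, NCAM1, CADM1, CADM2, TENM4 and the neuroligins, overlapped between genotypes. The 39-base exon of ALCAM, for example, was in 80.1% ± 1.98 of transcripts in the knockout and 80.9% ± 1.54 in WT (SD, n = 3 each).

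Among the other immunoglobulin-type genes NCAM1 and CADM3 rose and CADM2 fell clearly. NCAM1 (chr11:112961420-113278436), the neural cell adhesion molecule that carries polysialic acid, had 121, 148 and 135 CPM in knockout libraries and 81.1, 88.1 and 87.3 CPM in WT libraries, a change of 0.65 ± 0.08 (edgeR adjusted p = 0.000196). Its main transcript NCAM1-201 rose by 0.56 ± 0.09 (edgeR adjusted p = 0.0402), and 2 short exons of the gene overlapped between genotypes. NCAM2 had 16.8, 15.5 and 15.0 CPM in knockout libraries and 13, 14.4 and 9.36 CPM in WT libraries, and did not pass (0.36 ± 0.15, edgeR adjusted p = 0.118). Its libraries did not overlap between genotypes, but WT replicate 3 lay well below the other two.

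The CADM proteins (SynCAMs or nectin-like proteins) join cells and synapses in like and unlike pairs, and their 4 genes did not move together. CADM3 had 5.04, 5.44 and 4.76 CPM in knockout libraries and 0, 0.102 and 0.205 CPM in WT libraries, a change of 5.58 ± 0.50 (edgeR adjusted p = 1.37e-05, and 6.51 without WT replicate 3). CADM2 had 2.85, 4.33 and 3.31 CPM in knockout libraries and 7.70, 7.61 and 6.95 CPM in WT libraries, a change of -1.08 ± 0.19 (edgeR adjusted p = 0.00184). The libraries of the genotypes were well apart for both. CADM1 and CADM4, which held most of the family's TPM, overlapped between genotypes. CADM1 averaged 90.0 ± 16.0 CPM in the knockout and 89.8 ± 1.79 CPM in WT, and CADM4 averaged 68.8 ± 5.01 and 71.7 ± 1.72 CPM (SD, n = 3 each), with edgeR adjusted p = 0.985 and 0.628.

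ALCAM and MCAM, adhesion proteins of the immunoglobulin superfamily found on many cells and tumours, changed little. ALCAM had 260, 336 and 292 CPM in knockout libraries and 345, 370 and 362 CPM in WT libraries, a change of -0.28 ± 0.09 (edgeR adjusted p = 0.0392). It did not pass without knockout replicate 1 (adjusted p = 0.0736) or 3 (0.133), without WT replicate 1 (0.0682), 2 (0.134) or 3 (0.108), or with either count from the transcript files. MCAM had 83.9, 97.3 and 81.9 CPM in knockout libraries and 72.8, 70.8 and 71.2 CPM in WT libraries, a change of 0.29 ± 0.08 (edgeR adjusted p = 0.0224). It did not pass without WT replicate 1 (adjusted p = 0.0633), 2 (0.0973) or 3 (0.0750).

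The 8 contactin and CNTNAP genes tested held 4 that rose, 1 that fell and 3 that missed the threshold, and their median was 0.67. Of all genes tested 14.5% were higher and 11.5% lower, with a median of 0.00. CNTN2 and CNTNAP5 passed the filter on low counts only through the knockout libraries, so the count of rises was partly set by this filter. CNTNAP2 and CNTN4 rose from moderate levels, CNTN2 and CNTNAP5 were near 0 in WT, and CNTNAP4 fell. Contactin-2 and CASPR2, the CNTNAP2 product, form a complex beside nodes of Ranvier that holds potassium channels in place. Both genes rose, but most CNTNAP2 reads lay on a short transcript at the end of the gene. The complex itself was not measured.

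CNTNAP2 (chr7:146116801-148420998) had 193, 232 and 220 CPM in knockout libraries and 96.1, 103 and 102 CPM in WT libraries, a change of 1.1 ± 0.08 (edgeR adjusted p = 2.91e-06). Its reads lay mostly on CNTNAP2-203, a transcript of 6076 bases, with 3691, 4752 and 4595 reads in knockout libraries and 1981, 2028 and 1999 in WT libraries (1.05 ± 0.09, edgeR adjusted p = 0.00577). CNTNAP2-203 took 97.7% of the gene's reads in the knockout and 99.8% in WT. CNTNAP2-201, the transcript that spans the whole gene, had 90.6, 75.2 and 122 reads in knockout libraries and 0, 0 and 4.11 in WT libraries. The level of the gene in both genotypes was therefore mostly that of the short transcript at the end of the gene.

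CNTN2 (contactin-2, chr1:205042949-205078289) had 2.65, 3.61 and 1.87 CPM in knockout libraries and 0, 0.152 and 0.153 CPM in WT libraries, from 167 and 6 counts. Its change was 4.67 ± 0.61 (edgeR adjusted p = 0.000225), and 2.42 when computed from length-corrected transcript reads, where it did not pass (0.0933). CNTN4 (chr3:2098866-3057959) had 11.7, 15.3 and 10.7 CPM in knockout libraries and 3.92, 4.82 and 4.35 CPM in WT libraries, a change of 1.53 ± 0.17 (edgeR adjusted p = 8.55e-05). For both genes all knockout libraries were above all WT libraries, and a coding transcript of each rose, CNTN2-201 (edgeR adjusted p = 0.0473) and CNTN4-205 (0.0300).

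CNTNAP5 (chr2:124025287-124921219) had 5.09, 7.61 and 6.62 CPM in knockout libraries and 0, 0.102 and 0 CPM in WT libraries. It rested on 400 counts in the knockout and 2 in WT, a ratio of 194 (exact 95% interval 53.3 to 1605), and the fitted change was 7.35 ± 0.54 (edgeR adjusted p = 3.61e-06, and 10.04 without WT replicate 2, which held both WT counts). None of its knockout counts lay on GENCODE 29 transcripts, so it has no transcript values here. CNTNAP4 (chr16:76277401-76560757), known from inhibitory synapses in mice, went the other way, with 3.36, 1.78 and 3.68 CPM in knockout libraries and 19.3, 18.3 and 14 CPM in WT libraries. It fell by 2.54 on the log2 scale (SE 0.23, edgeR adjusted p = 1.80e-05). CNTNAP4-201 had 0 reads in each knockout library and 117, 104 and 83.9 in WT libraries (edgeR adjusted p = 0.0136).

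CNTN1, CNTN3 and CNTNAP1 did not pass. CNTN1 had 42.4, 66.4 and 58.3 CPM in knockout libraries and 51.6, 48.5 and 42.2 CPM in WT libraries, which overlapped (0.23 ± 0.15, edgeR adjusted p = 0.294). It passed without knockout replicate 1 (0.39, adjusted p = 0.0141). CNTN3 averaged 10.1 ± 0.328 CPM in the knockout and 11.6 ± 1.62 CPM in WT, and CNTNAP1 averaged 67.6 ± 8.19 and 70.6 ± 5.84 CPM (SD, n = 3 each). CNTN5 had 1, 10 and 5 counts in knockout libraries and 0, 0 and 1 in WT libraries, and CNTN6 had 2, 4 and 12 counts in knockout libraries and 3, 1 and 0 in WT libraries. Scaled to library size the genotypes overlapped for both, and with no filter on low counts neither passed (edgeR adjusted p = 0.0913 for CNTN5 and 0.242 for CNTN6). Among the contactins CNTN1 held 67.5% ± 3.99 of the TPM in the knockout and 71.2% ± 0.583 in WT, CNTN4 held 16.3% ± 1.69 and 9.71% ± 2.29, and CNTN3 held 12.8% ± 2.74 and 18.4% ± 2.88 (SD, n = 3 each).

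In the neurexin-neuroligin group 4 of 7 tested genes rose and 0 fell, and the median was 0.63. Over all genes tested 14.5% were higher and 11.5% lower, with a median of 0.00. NRXN2 and TENM4 had the largest changes, and NLGN1 and NLGN3 rose by less. LRRTM2, NLGN2 and TENM3 did not pass. NRXN2 was the one neurexin tested. NRXN3 had 14, 14 and 10 counts in knockout libraries and 1, 1 and 3 in WT libraries, which is under the filter on low counts. NRXN3 was tested in 5 of the alternative fits and was higher in the knockout in each (edgeR adjusted p between 0.0107 and 0.0366, with 2.79 on the log2 scale and 0.0183 with no filter).

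NRXN2 (chr11:64606174-64723197) had 22.3, 21.2 and 21.6 CPM in knockout libraries and 0.920, 1.02 and 0.920 CPM in WT libraries. The spread within each genotype was small beside a level 22.7-fold higher in the knockout. The change was 4.5 ± 0.14 (edgeR adjusted p = 1.25e-08), and 3.80 when computed from length-corrected transcript reads.

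Most of the NRXN2 reads in the knockout came from transcripts that begin at the beta start site. Those had 268, 238 and 278 reads in knockout libraries and 3, 0 and 18 in WT libraries. Transcripts from the alpha start site had 80.9, 96.9 and 17.3 reads in knockout libraries and 5, 5.77 and 0 in WT libraries. Beta transcripts had more estimated reads than alpha transcripts in every knockout library. The rest had 43.1, 31.1 and 59.6 reads in knockout libraries and 11.0, 14.2 and 0 in WT libraries. The beta share was 70.6% ± 6.91 in the knockout, and in WT it ran from 0% to 100% over 18 to 20 reads per library, so that the shares could not be told apart (exact permutation p = 0.4, two-sided).

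**Figure D5:**
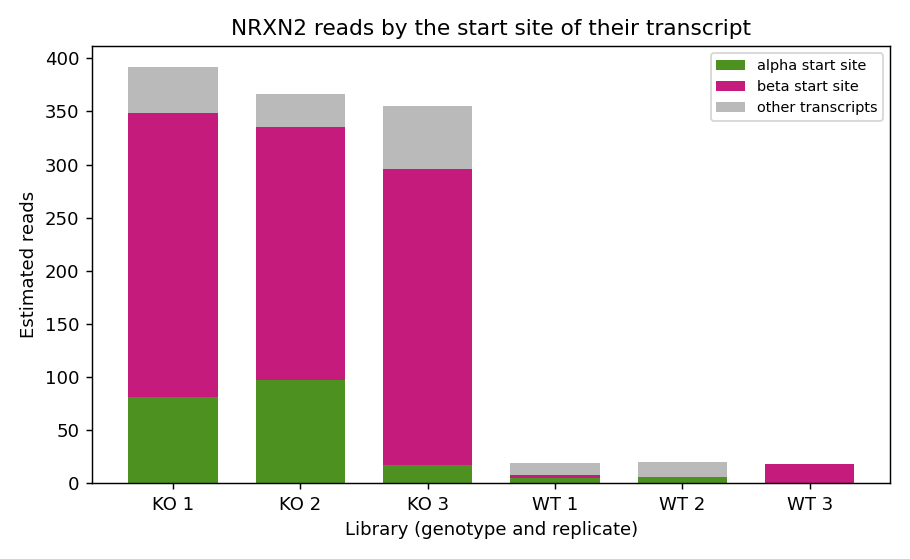
Estimated reads of NRXN2 in every library, stacked by the start site of the transcript, knockout libraries left of WT libraries. Beta-start transcripts hold 65.0% to 78.3% of the reads in knockout libraries, and the WT libraries hold 20 reads or fewer each.

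NRXN2-202, whose coding start is printed above, carried most of the beta reads, with 246, 213 and 254 in knockout libraries and 0, 0 and 13.4 in WT libraries. The 60 bases of its coding start are not found in the alpha transcripts NRXN2-204 and NRXN2-205. NRXN2-204 had 0, 90.4 and 0 reads in knockout libraries and 0, 5.77 and 0 in WT libraries, and NRXN2-205 had 56.4, 0 and 0 in knockout libraries and 0 in WT libraries. The alpha reads thus fell on different transcripts in different libraries. Of the other transcripts with at least 5% of the reads in a genotype, NRXN2-216 had 21.9, 31.1 and 31.9 reads in knockout libraries and 0, 2 and 0 in WT libraries, NRXN2-207 had 21.5, 25.3 and 23.6 against 3, 0 and 4.58, NRXN2-209 had 19.3, 1.96 and 10.1 against 5, 0 and 0, and NRXN2-210 had 21.2, 0 and 27.7 against 11.0, 12.2 and 0.

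Of the 4 NRXN2 transcripts that could be tested, 0 passed an adjusted p of 0.05 in edgeR, and 3 had an unadjusted p under 0.05. NRXN2-202 changed by 5.65 ± 1.52 (edgeR adjusted p = 0.160), and without WT replicate 3, which held its 13.4 WT reads, by 10.88 (0.0165). The transcripts of GENCODE 29 carried 89.6%, 83.0% and 76.6% of the NRXN2 counts in knockout libraries and 100% in each WT library.

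Neuroligins are the postsynaptic partners of neurexins, and they were nearer to WT levels. NLGN1 had 15.3, 18.4 and 15.4 CPM in knockout libraries and 10.7, 11.6 and 9.36 CPM in WT libraries, a change of 0.63 ± 0.13 (edgeR adjusted p = 0.00414, and 0.292 from length-corrected transcript reads). NLGN3 had 32.1, 26.2 and 28.8 CPM in knockout libraries and 23.4, 23.4 and 16.4 CPM in WT libraries, a change of 0.46 ± 0.14 (edgeR adjusted p = 0.0376). The libraries did not overlap for either gene, and NLGN3 did not pass without knockout replicate 1 (adjusted p = 0.0739) or 3 (0.0991), without WT replicate 2 (0.0569) or 3 (0.102), with library size in place of TMM (0.0668) or with either count from the transcript files. NLGN2, which belongs to inhibitory synapses, had 149, 133 and 145 CPM in knockout libraries and 130, 131 and 127 CPM in WT libraries and did not pass (0.14 ± 0.07, edgeR adjusted p = 0.166). NLGN2 held 82.9% ± 1.87 of the neuroligin TPM in the knockout and 88.2% ± 5.58 in WT, and NLGN3 held 10.6% ± 1.43 and 6.52% ± 4.68 (SD, n = 3 each). GENCODE 29 transcripts carried 25.1% to 72.5% of the NLGN3 counts and 70.2% to 85.4% of the NLGN1 counts, so these shares are uncertain.

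LRRTM2, a postsynaptic neurexin ligand, had 0.917, 0.819 and 0.979 CPM in knockout libraries and 0.387, 0.863 and 0.307 CPM in WT libraries, which overlapped (0.80 ± 0.46, edgeR adjusted p = 0.241). Teneurins are large transmembrane proteins that bind latrophilins, the ADGRL receptors, across the synapse. TENM4 (chr11:78652829-79441030) had 101, 114 and 111 CPM in knockout libraries and 29.3, 30.3 and 28.8 CPM in WT libraries. It rose 3.69-fold (1.88 ± 0.08, edgeR adjusted p = 6.02e-08), as did its main transcript TENM4-201 (1.88 ± 0.07, edgeR adjusted p = 0.000658). TENM3 averaged 133 ± 16.1 CPM in the knockout and 146 ± 15.9 CPM in WT (SD, n = 3 each) and did not pass (-0.13 ± 0.10, edgeR adjusted p = 0.404). TENM1 was not in the table and had 0 reads in the knockout and 1 in WT in the transcript files.

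Genes that work with these adhesion proteins were counted in the same fit. The partner lists were also chosen with earlier results of these data known. Of 29 genes for proteins on the cytoplasmic side (catenins, ankyrins, spectrins and synaptic scaffolds) 26 were tested, 14 rose and 2 fell, and the median was 0.32. Among all genes tested 14.5% were higher and 11.5% lower, with a median of 0.00. By size of adjusted p the first 4 were all scaffolds: DLG2 (3.24 ± 0.14, edgeR adjusted p = 7.99e-08), SHANK1 (4.90 ± 0.35, 2.40e-06), SHANK2 (4.91 ± 0.53, 5.42e-05) and DLG3 (2.56 ± 0.29, 8.37e-05). DLG2 averaged 23.3 ± 0.469 CPM in the knockout and 2.48 ± 0.395 CPM in WT. SHANK1 averaged 12.6 ± 1.88 and 0.423 ± 0.284 CPM (SD, n = 3 each). SHANK2 averaged 4.20 ± 0.678 CPM in the knockout and 0.133 ± 0.127 CPM in WT (SD, n = 3 each). In knockout and WT, SHANK1 rested on 779 and 25 counts and SHANK2 on 261 and 8. Both genes passed the filter on low counts only through the knockout libraries. The postsynaptic scaffold genes DLG2, SHANK1 and SHANK2 were thus low in WT.

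Of 24 genes for extracellular or receptor partners of neurexins, neuroligins, teneurins and contactins 20 were tested, 9 rose and 3 fell, and the median was 0.31. The same shares over all genes tested, 14.5% higher and 11.5% lower, apply to this list. CLSTN2, a calsyntenin, averaged 12.8 ± 1.15 CPM in the knockout and 0.500 ± 0.0368 CPM in WT (SD, n = 3 each), a change of 4.66 ± 0.20 (edgeR adjusted p = 7.87e-08). The latrophilin genes ADGRL3 (3.01 ± 0.13, edgeR adjusted p = 9.97e-08) and ADGRL1 (0.53 ± 0.07, 0.000204) rose. ADGRL2, the latrophilin gene with the highest level, did not pass (0.07 ± 0.10, edgeR adjusted p = 0.666). It averaged 382 ± 60.2 CPM in the knockout and 364 ± 11.3 CPM in WT (SD, n = 3 each). FLRT3, which binds latrophilins, rose by 1.18 ± 0.16 (edgeR adjusted p = 0.000288). ADGRL3 averaged 40.9 ± 1.91 CPM in the knockout and 5.07 ± 0.929 CPM in WT (SD, n = 3 each), so that TENM4 and this latrophilin gene both rose.

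The genes around the adhesion genes showed no large common shift. For the 40 adhesion genes with at least 10 other tested genes within 5 Mb, the median log2 fold change of those neighbours lay between -0.15, around CDH2, and 0.19, around NLGN1. Some neighbourhoods leaned to one side: 76.2% of the 21 neighbours of NLGN1 and 31.3% of the 131 neighbours of CADM3 were on the higher side. Around NRXN2 the neighbours' median was -0.08, around CHL1 -0.04, around CNTNAP5 0.10 and around TENM4 0.09. The changes of these 4 genes were thus far larger than the medians of their surroundings. Smaller changes lay nearer to theirs: CDH2 changed by -0.33 beside -0.15, NLGN1 by 0.63 beside 0.19 and NLGN3 by 0.46 beside 0.14. A part of the surroundings in these changes was not tested.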

How the data were processed

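RNA-seq was made from 3 DNAJC12 knockout and 3 WT libraries of SH-SY5Y cells. Per the labels' protocols, ribosomal RNA was removed from total RNA, and the libraries were stranded and randomly primed. Tools named by the submitters' processing notes, without their roles, are cutadapt 3.5, Salmon 1.10.0 and DESeq2 1.42.1, with the build GRCh38.p14. The annotation release and strand setting are not given there, so a gene cannot be told apart from an overlapping antisense gene. The deposited gene table holds estimated counts, rounded and not normalized, and its lowest row total is 10. Repeated rows (403) were removed, leaving 20668 genes. The deposited transcript files hold, per the file headers, TPM values and estimated counts of 251955 transcripts, of which 201667 were assigned to genes through GENCODE 29, with 94.2% to 94.6% of the reads. Effective lengths were used for length-corrected counts.

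Genes kept by filterByExpr (16403) were scaled by TMM and tested for genotype with the quasi-likelihood F-test of edgeR 4.0.16 (R 4.3.3), two-sided, at a Benjamini-Hochberg adjusted p of 0.05. SE was obtained by dividing the size of the log2 fold change by the root of F. Transcripts (52233) were tested alike on rounded estimated counts. Short exons are internal coding exons of up to 60 bases with at least 50 spanning reads in each genotype and a mean inclusion between 5% and 95% in at least 1 genotype; this comparison was added after the data had been seen. Permutation tests used scipy 1.17.1. Gene positions are from RefSeq on GRCh38.p14. In a library 1 count was 0.0457 to 0.0518 CPM, and the floor of 3 counts 0.137 to 0.155 CPM. Intervals and floors cover counting error only: no molecular identifiers are described, so reads need not be independent. Replicates of a genotype differed by more than counting noise (chi-square per gene of 4.37 to 22.7), so none were merged.

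The 45 genes and the partner and marker lists were chosen with earlier results of these data known. All 45 genes are named. Values in every library are given for those past the threshold, and of each partner list the 4 genes with the smallest adjusted p are named. ADGRL2 is named besides these, as the remaining latrophilin gene. Alternatives were DESeq2 1.42.0, limma-voom (limma 3.58.1), other scalings and filters, a replicate block, each library left out, and gene counts from the transcript files.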

Additional observations from a re-analysis of the deposited data

How the results depend on the processing

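Of 754 recomputed values and counts, 696 were classed as the same. For single genes this meant the same direction and side of the threshold, and for short exons a shift smaller than the larger SD. Counts of changed genes classed as the same could still move, for instance from 23 adhesion genes to 17 with length-corrected transcript reads. None of the 23 adhesion genes past the threshold changed direction. At an adjusted p of 0.05, 16 of these genes, 12 higher and 4 lower, passed in each alternative fit that tested them, and the other 7 (CDH2, CDH7, ALCAM, MCAM, CNTN2, NLGN1 and NLGN3) were lost in at least 1. An adjusted p of 0.01 left 18 of the 23, and requiring at least a 2-fold change left 16, NCAM1 and L1CAM not among them. With each library left out in turn, the number of changed genes ran from 19 to 23 over all adhesion genes and from 3 to 5 over the cadherins, and the number of NRXN2 transcripts passing from 0 to 1. From length-corrected transcript reads, 3 contactin and CNTNAP genes, 2 genes of the neurexin-neuroligin group and 10 cytoplasmic partners changed; CNTNAP5 could not be tested there, and the cause of the other losses was not tested. Library size in place of TMM moved the median gene by -0.06.

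CADM1, which did not pass, turned to -0.01 with limma-voom, -0.05 with library size alone, -0.00 with no filter on low counts, -0.01 with the replicate block, -0.09 with length-corrected counts, and -0.13, -0.00 and -0.02 without knockout replicate 2, knockout replicate 3 or WT replicate 3; over all libraries left out it lay between -0.13 and 0.13. CNTNAP1, which did not pass, turned to 0.02 with length-corrected counts and lay between -0.14 and 0.03 with libraries left out, 0.03 being without knockout replicate 2. By raw counts in place of TPM the share of CDH2 differed by -11.7 percentage points, that of CDH11 by 11.8 and that of CADM1 by 0.391. The CADM1 share differed by 2.17 without knockout replicate 1 and 0.388 without WT replicate 3, and lay between -3.94 and 2.17. The CADM4 share differed by 3.03 without knockout replicate 2 and 1.29 without WT replicate 1, and lay between -3.11 and 3.03. The short exon alternatives were chosen after seeing the data: by estimated reads in place of TPM the 18-base exon of NRCAM differed by 20.9 and the 30-base exon by 20.5 percentage points.

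Same-numbered libraries did not deviate together (correlations of 0.067, -0.050 and -0.086), and unlike-numbered pairs ran from -0.097 to 0.138. The main fit therefore did not pair them. Whether same-numbered libraries share more than a number is not stated in the labels, and these correlations cannot show it. With the replicate block 24 adhesion genes changed, NCAM2 being added (adjusted p = 0.0488), and 4565 genes in all, against 4270.

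Depth limits the genes near 0, where 0 to 2 WT counts give no firm size of a difference.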
